A study of Oryza sativa with 4 samples.

Results

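The regions described here are the shared low-pileup peaks of a chromatin immunoprecipitation sequencing (ChIP-seq) study of OsMADS27 in rice: places listed as peaks in both replicates with few tags over the summit. Each replicate 1 peak was paired with the replicate 2 peak that overlapped it most, by at least 50% of the shorter of both, and it was kept when the pileup, the scaled number of tags over the summit, was below 100 in both lists. This left 2236 of 56179 shared peaks, from lists of 72738 and 73366 peaks. The peaks were thus chosen by their pileup, so pileup, fold enrichment and q, which come from the same comparison with input, are descriptions and were not tested.

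OsMADS27 is a MADS-domain transcription factor. Proteins of this family bind DNA as dimers at CArG boxes, short AT-rich sequences flanked by CC and GG, and often act in larger complexes with other family members. OsMADS27 belongs to the clade of Arabidopsis ANR1, a regulator of lateral root growth in response to nitrate, and the series concerns modules of nitrate response in rice.

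Chromatin came from young regenerating seedlings of the indica cultivar Pusa Basmati 1 (PB1), grown in diluted Murashige-Skoog medium with no treatment. All 4 samples carried the same transgene, an overexpressed OsMADS27 with a 3xMyc tag at the N terminus, and no wild-type or untagged sample was analysed here. In both pull-down samples the tagged protein was captured on Myc-Trap magnetic agarose, and both input samples were sheared chromatin of the same genotype. Overexpression can place a factor at sites it does not hold at its natural level, and the labels name neither the promoter nor the number of plants or transgenic lines, so the spread between replicates may be technical. Kept tags numbered 136923044 and 130482505 in the pull-downs and 131452322 and 127964706 in the inputs, which gives a genome-wide average of 16.4 and 16.0 input tags over a position. With 1 list per replicate and no second group, the 2 replicate values are printed next to each other, without an SD or a test. Positions are those of the replicate 1 peak, 1-based, on the genome build of the lists, which the labels and headers do not name. No peak was placed relative to a gene.

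The input background set by the peak caller was above its floor, the genome-wide average, at most shared low-pileup peaks. Their median summit held 80 pulled-down tags in replicate 1 (range 34 to 104) and 76 in replicate 2 (33 to 101). The input background, the number of input tags that the peak caller set against them, had a median of 34.6 tags in replicate 1 and 34.0 in replicate 2. That was 2.10 and 2.13 times the genome-wide average, with quartiles of 1.64 and 2.65 times in replicate 1 and of 1.56 and 2.63 times in replicate 2.

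A background under 2 times the average in both lists was found at 778 of the 2236 peaks (34.8%, 95% Wilson interval 32.8 to 36.8%), against 1.45% of all shared peaks. This share depended on the limit, and was 58.0% with a pileup below 80 and 22.2% with one below 120. Under 1.5 times there were 296 (13.2%, against 0.532%). At least 2 times the average in both lists was found at 1057 (47.3%, against 97.6%) and at least 3 times at 152 (6.80%, against 93.6%). The floor of the peak caller, its genome-wide average, was itself the background at 77 peaks in replicate 1 and 92 in replicate 2. A limit on pileup also limits the background, since a peak must exceed it, so nothing is read from these differences. The choice of these peaks supposed low input coverage and likely single-copy sequence. The background cannot fall below the floor, so at the 77 and 92 peaks on it input coverage may be lower than the average. At the other peaks the background was above the average, so it does not show coverage below the average there. It does not decide whether the sequence is single copy. Copy number was not tested, and the peaks are called low-pileup peaks throughout.

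**Figure D1:**
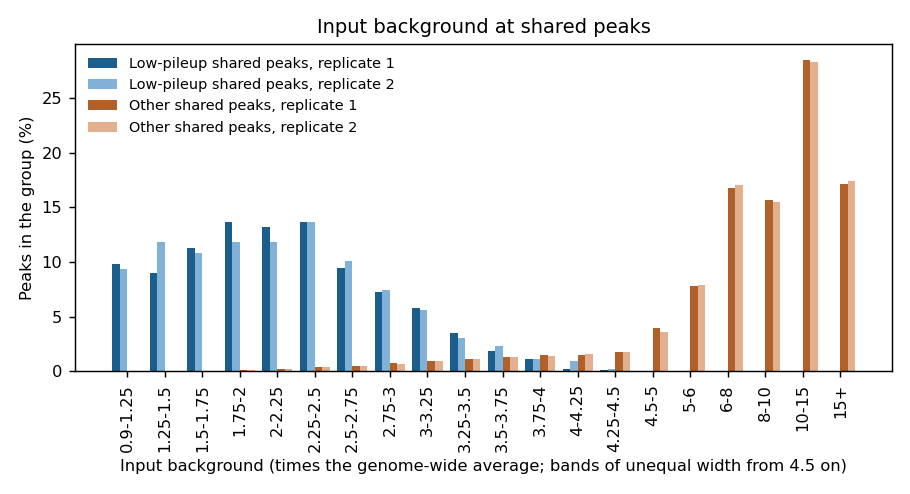
Percent of peaks (vertical axis) by input background in multiples of the genome-wide average (horizontal axis), for low-pileup shared peaks (blue) and all other shared peaks (orange) in each replicate. Low-pileup peaks have medians of 2.10 and 2.13 times the average and reach 4.32 and 4.38 times, while the other shared peaks have medians of 9.43 and 9.44 times.

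Enrichment over input was modest. The median fold enrichment, the ratio of pileup plus 1 to background plus 1 as the authors' peak caller gave it, was 2.05 in replicate 1 (95% interval of the median 2.02 to 2.08) and 2.10 in replicate 2 (2.08 to 2.13). The lowest fold was 1.37 in both lists, and the highest were 5.34 and 4.96. A fold of at least 2 in both lists was reached by 874 peaks (39.1%, against 25.4% of all shared peaks), of at least 2.5 by 267 (11.9%, against 5.43%) and of at least 3 by 58 (2.59%, against 0.778%). A −log10 q of at least 10 in both lists was reached by 236 (10.6%, against 59.0%). These shares use the same comparison as the choice of peaks, so nothing is read from their distance to the background shares.

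Folds were lower where the input background was higher. The 424 peaks with a mean background under 1.5 times the average had median folds of 2.42 and 2.45 at median tag numbers of 54 and 51. From 2 to 2.5 times (581 peaks) the median folds were 2.08 and 2.08 at 82 and 78 tags, and at 3 times and above (244 peaks) they were 1.65 and 1.59 at 95 and 91 tags. Since the fold is divided by the background and the pileup was limited, part of this order is arithmetic. For much the same reason all 58 peaks that reached a 3-fold enrichment in both lists had a background under 2 times the average: at a pileup below 100 such a fold needs a background below 32.7 tags, or 1.99 and 2.04 times the average.

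Ranked by the smaller of both folds, the first 10 low-pileup peaks lay on 7 chromosomes and had folds of at least 3.69 in both lists. Chromosome 4 held the first, at 28794622 to 28794672. Its summit had 88 tags in replicate 1 (95% exact Poisson interval 70.6 to 108, counting error only) and 93 in replicate 2 (75.1 to 114), and its folds were 4.90 and 4.19. On chromosome 2, the peak at 19772644 to 19772739 held 100 tags in each list (81.4 to 122), with folds of 3.90 and 3.96 and summits at the same base. On chromosome 11, the peak at 28928306 to 28928356 had folds of 4.06 and 3.88, from 92 and 90 tags where the background was 1.28 and 1.38 times the average. In 8 of the 10 the tag numbers of the replicates lay within each other's counting intervals.

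Chromosomes 1, 3 and 4 gave a pair each to this group. On chromosome 3, the peak at 2050189 to 2050245 had folds of 3.89 and 4.44 from 80 and 76 tags. The other, at 14582292 to 14582427, held 86 tags in replicate 1 (68.8 to 106) and 65 in replicate 2 (50.2 to 82.8), with folds of 4.64 and 3.81 and a width of 136 and 145 bp. On chromosome 1, the peak at 31901886 to 31901939 held 83 and 68 tags (folds 4.55 and 3.98) and the one at 36037516 to 36037567 held 77 and 75 tags (folds 3.75 and 4.39). The second peak of chromosome 4, at 9069154 to 9069304, held 71 and 63 tags over the genome-wide average in both lists, with folds of 3.97 and 3.69. Its summits lay 110 bp apart, so the lists did not place the same maximum.

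The remaining members of the group were a peak on chromosome 10 at 21001328 to 21001381, with 80 and 93 tags and folds of 3.89 and 4.01, and one on chromosome 6 at 23833256 to 23833317, with 101 tags (82.3 to 123) and 80 tags (63.4 to 99.6) and folds of 3.77 and 4.41. On the other 5 chromosomes the best peak had a lower fold. Chromosome 7 had it at 768811 to 768939, with 68 and 69 tags and folds of 3.68 and 3.81. That of chromosome 12 lay at 14398174 to 14398227 and had 79 and 84 tags, with folds of 3.61 and 3.79. For chromosome 8 the position was 9162444 to 9162534, the tags were 83 and 79 and the folds 3.23 and 3.59. Chromosome 9 followed at 6115598 to 6115650 (71 and 69 tags, folds 3.14 and 3.27). The lowest best peak was that of chromosome 5 at 15956175 to 15956224 (84 and 77 tags, folds 2.92 and 3.33). Each chromosome thus held a shared low-pileup peak with a fold of at least 2.92 in both lists.

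At the other end, the faintest shared peaks held under 40 tags. The one with the lowest larger pileup, on chromosome 2 at 3574823 to 3574872, held 36 tags (25.2 to 49.8) and 33 tags (22.7 to 46.3), with folds of 1.98 and 1.96 and a −log10 q of 2.5 and 2.3. The peak on chromosome 11 at 27277905 to 27277981 held 34 and 36 tags, and that on chromosome 1 at 23793061 to 23793117 held 39 and 34. Both other peaks of this group, on chromosome 4 at 22215280 to 22215329 and on chromosome 5 at 21182849 to 21182899, held 38 tags in each list. All 5 had a background of at most 1.1 times the average and folds of 1.93 to 2.25.

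Just inside the limit, 27 peaks were tied at the largest pileup of 99.84, and 13 shared peaks were tied just outside at 100.03. The 3 described on each side were taken from these ties by chromosome and position. Those inside had 99.84 in replicate 1 and 87.28, 92.19 and 97.09 in replicate 2. The first of them, on chromosome 1 at 6262704 to 6262810, had folds of 2.19 and 1.96. The others, at 11015831 to 11015952 of chromosome 10 and 2721575 to 2721633 of chromosome 11, had folds of 3.06 and 2.12 and of 1.77 and 1.75. Those outside had 100.03 in replicate 2 and 92.16, 98.88 and 83.52 in replicate 1. Chromosome 1 had 2 of them, at 23296577 to 23296767 (folds 3.11 and 1.77) and 38881995 to 38882054 (1.88 and 1.74), and the last lay at 23040793 to 23040903 of chromosome 10 (2.17 and 2.25). The values of these 6 peaks overlapped in fold and in background.

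Tag numbers of a shared low-pileup peak were close in the lists, in part by the choice of peaks, and folds less so. Across the 2236 peaks Spearman's rho was 0.82 for tags, 0.79 for background and 0.46 for fold, against 0.97, 0.97 and 0.83 across the other shared peaks, whose values span a wider range. Peaks are not independent replicates, and both inputs were sequenced to similar depth. Tags differed by less than 1.5 times in 99.3% of peaks, background (plus 1 tag) in 93.3% and fold in 91.6%. No peak differed by 2 times in tags, while 10 did in background and 8 in fold. These counts were not made over all shared peaks. The pileup limit and the significance needed in both lists leave out pairs with very unequal tags. The closeness of tags is thus not read as agreement. Within bands of mean background rho for fold fell from 0.44 (under 1.5 times the average, 424 peaks) to 0.18 (2 to 2.5 times, 581 peaks), −0.02 (2.5 to 3 times, 410 peaks) and −0.06 (3 times and above, 244 peaks). The bands were cut on the mean of both backgrounds, which sets the 2 backgrounds against each other within a band. From 2.5 to 3 times the average rho was −0.52 for background and 0.45 for tags. At 3 times and above it was −0.10 for background and 0.29 for tags. Fold is divided by background, and the limits on pileup and on significance also leave a narrow range there. The fall of rho for fold is thus not read as a loss of agreement between the lists.

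**Figure D2:**
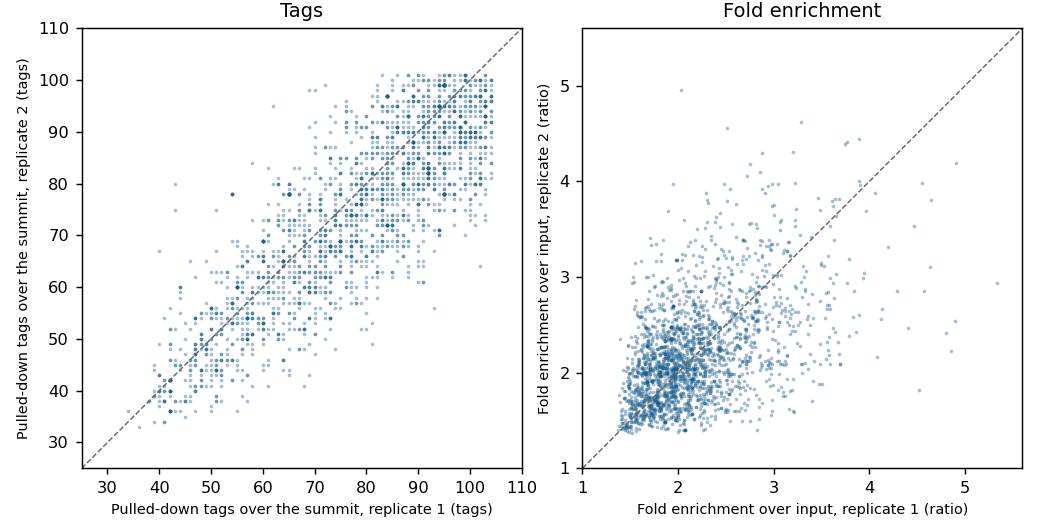
Each point is 1 of the 2236 shared low-pileup peaks, with replicate 1 on the horizontal and replicate 2 on the vertical axis, as tags over the summit (left) and as fold enrichment (right); the dashed line marks equal values. Tags follow the line (rho 0.82) and folds scatter widely around it (rho 0.46), and darker points are tag numbers that several peaks have in common.

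Of the 4 peaks with the most unequal folds, 3 differed mainly in input. On chromosome 9, the peak at 8741189 to 8741310 held 90 tags in each list over 2.56 and 1.06 times the average input, and folds were 2.03 and 4.96. On chromosome 12, the summit of 3047024 to 3047227 had 84 and 82 tags over 2.5 and 1.22 times, with folds of 1.94 and 3.97. On chromosome 6, that at 17654735 to 17654807 held 87 and 74 tags over 1.00 and 2 times, with folds of 4.85 and 2.23. The peak on chromosome 10 at 7381918 to 7382051 also differed in tags, with 81 in replicate 1 (64.3 to 101) and 49 in replicate 2 (36.3 to 64.8), and folds of 4.52 and 1.82. These 4 were picked for their difference.

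Most low-pileup peaks of either list had no partner. Of 5882 such peaks in replicate 1, 2537 had one (43.1%, 95% Wilson interval 41.9 to 44.4%), against 77.2% of the whole list. Of 6114 in replicate 2, 2684 had one (43.9%, 42.7 to 45.1%), against 76.2%. Of these, 2236 and 2225 were in a pair with both pileups below the limit. The other 301 of replicate 1 had a partner at or above it. Pairs were built from replicate 1, so the other 459 of replicate 2 may also include peaks whose partner overlapped another replicate 2 peak more. In 11 cases a single replicate 2 peak was the partner of more than 1 replicate 1 peak, which is why 2236 and 2225 differ.

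A partner was more frequent at higher tag numbers, larger widths and higher input background, and less frequent at the lowest significance. Peaks with a pileup under 40 had a partner in 20.0% of cases in replicate 1 (14.7 to 26.6%, 170 peaks) and 24.5% in replicate 2 (19.6 to 30.2%, 253 peaks), and those of 80 to 100 in 53.1% (51.0 to 55.1%) and 52.5% (50.5 to 54.5%). Peaks of 50 to 60 bp had one in 28.1% and 26.9%, and those of 200 bp or more in 81.9% and 77.2%, though a wide peak meets the overlap rule more easily. Below 1.5 times the average background the shares were 34.2% (31.6 to 36.9%) and 32.4% (30.1 to 34.9%), and at 3 times and above 48.2% and 51.2%. At a −log10 q below 2 the shares were 33.1% and 37.0%, at 2 to 4 they were 36.4% and 40.2%, and at 4 to 8 they were 46.3% and 46.2%. They were 48.0% and 45.0% at 12 and above. The intervals cover counting error only.

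Summits lay farther apart in the lists than at other shared peaks, and wide peaks were less frequent. The median width was 95 bp in replicate 1 and 94 bp in replicate 2, near the 97 and 100 bp of the others, but a width of at least 200 bp in both lists was found at 35 peaks (1.57%, against 6.87% of all shared peaks). Summits lay a median of 6 bp apart, against 1 bp at the other shared peaks. They were at most 10 bp apart in 60.2% (58.2 to 62.3%), against 80.6% of all shared peaks, and over 50 bp apart in 306 cases (13.7%, against 7.23%). Width and summit come from the same tags as the pileup. At a median of 80 and 76 tags the position of a maximum is less certain than at a median of 297 and 288, and how much this adds was not tested.

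The 4 widest peaks included 3 with the same tag numbers. On chromosome 9 at 17435957 to 17436423 and 17444651 to 17445119, and on chromosome 6 at 24759716 to 24760070, replicate 1 held 103 tags over a background of 51 tags and replicate 2 held 95 tags, with folds of 1.92 in replicate 1 and 2.36 to 2.48 in replicate 2. The fourth, on chromosome 7 at 16131030 to 16131332, was 303 and 301 bp wide, with 83 and 82 tags.

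Equal tag numbers were found at separate places. The 2236 peaks had 1185 combinations of replicate 1 and replicate 2 tag numbers, and 10 combinations were found at 10 or more peaks each, 133 peaks together. The most frequent, 95 tags in replicate 1 and 99 in replicate 2, occurred at 23 peaks on 10 sequences, and 65 and 78 tags occurred at 18 peaks on 8. In the combination of 60 and 69 tags, all 10 peaks, on 8 chromosomes, also had the same input background, 34 and 35 tags, and the same folds, 1.67 and 1.91. At such low numbers equal values also arise by coincidence, and no chance level was computed. Combinations of tag numbers were not counted over all shared peaks. Pileup and fold were both equal to those of another shared peak at 250 of the 2236 (11.2%, against 34.2% of all shared peaks).

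Pileup, fold and width were all equal to those of another shared peak in both lists at 86 of the 2236 (3.85%, Wilson interval 3.12 to 4.73%), against 11.3% of all shared peaks. They formed 35 sets of 2 to 6 peaks, 23 of them on more than 1 chromosome. One set of 6 had 92 and 83 tags and lay on chromosomes 1, 4, 8, 9 and 12, and a set of 4 with 64 and 65 tags lay on chromosomes 1, 7, 8 and 9. Near the ends of chromosomes 11 and 12, peaks at 23380 to 23523 and 21780 to 21923 both held 89 and 88 tags, with folds of 2.27 and 1.68.

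Neighbouring peaks also recurred together. A couple of shared peaks under 5 kb apart was called recurring when its 4 tag numbers, and the distance between its summits within 5 bp, were found at another place. Of the low-pileup peaks 181 (8.09%, 7.03 to 9.30%) belonged to such a couple, against 36.9% of all shared peaks. This definition was chosen after the values were seen, and since low-pileup peaks had fewer neighbours the shares are not directly comparable. Together with the identical sets, 219 peaks (9.79%) met at least 1 of both definitions and 2017 (90.2%) met neither. The share of 9.79% was not counted over all shared peaks. Meeting neither definition does not make the values of a peak unique. The combination of tag numbers was that of another low-pileup peak at 1598 peaks. Pileup and fold, without width, were equal to those of another shared peak at 250. The background of these 2017 had medians of 2.13 and 2.06 times the average, and that of the peaks in recurring couples 2.07 and 2.25 times, so the order differed between the replicates. At least 1 definition was met by 64 of the 874 peaks that reached a fold of 2 in both lists (7.32%). It was met by 5 of the 267 that reached 2.5 (1.87%) and by 0 of the 58 that reached 3. If peaks were independent, the last would allow a share of up to 5.17%. Fold is part of the definition of identical values, and these shares were not counted over all shared peaks, so nothing is read from their order.

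The couple on the most chromosomes joined a peak with 84 and 97 tags to one with 95 and 78 tags. Their summits were exactly 1548 bp apart at 8 places on 6 chromosomes, in one orientation at 4 and in the other at 4. The 84-tag peak started at 8790168 on chromosome 2, 12627109 on chromosome 6, 17894033 on chromosome 7 and 1112681 on chromosome 9. Chromosome 10 had it at 14377830 and 21936152, and chromosome 12 at 4596537 and 25850179. Folds were 1.81 to 2.09 and 1.96 to 2.40 at the former peak, and 2.98 to 3.69 and 2.09 to 2.67 at the latter.

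Further peaks recurred around this couple at some of the 8 places. A replicate 1 peak with 54 tags lay 1449 bp from the first summit at 4 of the 8 places, beside the 95-tag peak. In replicate 2 a single peak with 78 tags spanned both and was the partner of each, so these 4 are among the 11 such cases. On the opposite side, with distances counted as negative, a peak with 55 and 60 tags lay at −1361 to −1249 bp at 5 places. One with 50 and 56 tags lay at −1475 to −1471 bp at 3, and one with 57 and 54 tags at −3540 to −3423 bp at 4. Of the 42 shared peaks within 5 kb of the 8 summits, 41 were below the pileup limit, against 2236 of all 56179 shared peaks. This count includes both peaks of the couple, which were low-pileup peaks at all 8 places and served to find them. Nothing is read from it. Only the couple was present at all 8 places, and each other recurring peak at up to 5 of them. Input backgrounds differed between these peaks. At the 84-tag peak the background was above 2 times the average, with 38 to 44 tags in replicate 1 and 39 to 48 in replicate 2. At a peak with 73 and 62 tags, found at 2 places, it was also above that in both replicates. At the 95-tag peak it was under 2 times in replicate 1 (24.0 to 29.9 tags), but above at most places in replicate 2. It was under 2 times in both replicates at the peaks with 50 and 56, 57 and 54, and 55 and 60 tags. At the last of these it was 23.0 to 28.0 and 20.0 to 25.9 tags. Whether the 8 places are copies of 1 sequence was not tested, since no genome of the build of the lists was used here.

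**Figure D3:**
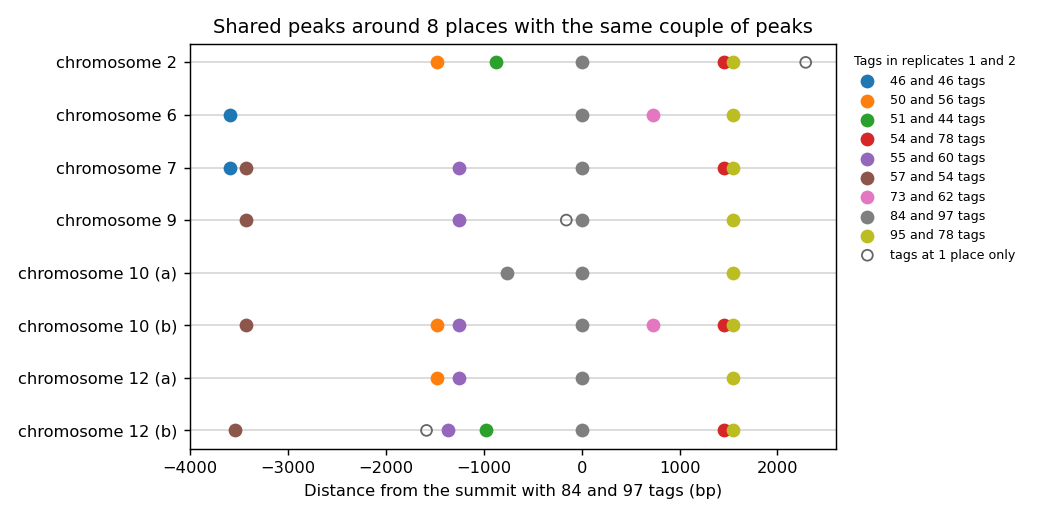
Shared peaks (circles) within 5 kb of the summit with 84 and 97 tags, at 8 places turned to the same orientation; the horizontal axis is the distance from that summit in bp, each line is 1 place, and colours mark tag numbers in replicates 1 and 2 that occur at more than 1 place. The 95 and 78 tag peak stands at 1548 bp in all 8, and other colours line up at up to 5 places. A further 84 and 97 tag peak lies at −760 bp in 1 place.

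The group with the most shared low-pileup peaks was an array on chromosome 8. Joining members under 10 kb apart gave 1733 groups, of which 1388 were single peaks (62.1% of members), 259 held 2 and 86 held 3 or more. The largest group had 19 members in 43248 bp, at 11160158 to 11203405 on chromosome 8, with 8 other shared peaks among them. The group at 11216033 to 11230422 on the same chromosome had 8 members in 14390 bp, and one on chromosome 12 at 25845249 to 25851936 had 8 in 6688 bp, which includes 1 of the 8 places above.

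Within 100 kb from the start of the chromosome 8 array lay 31 low-pileup peaks, and 28 of them shared their tag numbers with another of the 31. The combination of 65 and 78 tags came 9 times and that of 95 and 99 tags 7 times, in alternation along part of the array. From 11217727 to 11230422, 4 peaks with 95 and 99 tags were each 153 bp wide in replicate 1, with folds of 1.96 and 2.04, and their summits followed each other at 4181 bp. The 3 peaks with 65 and 78 tags between them, starting at 11220203, 11224383 and 11228565, were also 4181 bp apart, with folds of 2.31 to 2.43 in replicate 1 and 2.90 to 3.05 in replicate 2. Another of this kind lay 4120 bp before the first of them, at 11216033, with folds of 1.84 and 2.35. Upstream, at 11182742 and 11189987, peaks of the former kind were 7245 bp apart. Background at the 7 peaks with 95 and 99 tags was 45 to 46 and 45 to 47 tags. Of the 10 tag combinations in the array, 4 were those of the 8 places above (84 and 97, 95 and 78, 55 and 60, 50 and 56). The 500 kb window from 11 to 11.5 Mb on this chromosome held 31 low-pileup peaks, against a median of 3 and at most 12 in the other windows.

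Shared low-pileup peaks were found on all 12 chromosomes, in unequal density. Their density was 5.96 per Mb over the 12 chromosomes. It was highest on chromosome 7, with 227 peaks at 7.64 per Mb (95% exact Poisson interval 6.68 to 8.71), followed by chromosome 8 at 7.03 and chromosome 12 at 6.81. Of the 200 peaks on chromosome 8, 31 lay in the 500 kb window that holds the array described above. Chromosome 1 was lowest, with 191 peaks at 4.41 per Mb (3.81 to 5.09), then chromosome 3 at 5.05. The ratio of the highest to the lowest was 1.73, against 1.82 for the other shared peaks, which were densest on chromosome 4 (188 per Mb) and sparsest on chromosome 3 (103 per Mb). In the order of densities each chromosome's counting interval overlapped that of the next. These intervals treat peaks as independent. Numbers of low-pileup peaks per 500 kb window had a variance of 2.13 times their mean, so the intervals are too narrow. The unplaced sequences held 13 low-pileup peaks (0.581%, against 0.755% of the other shared peaks).

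**Figure D4:**
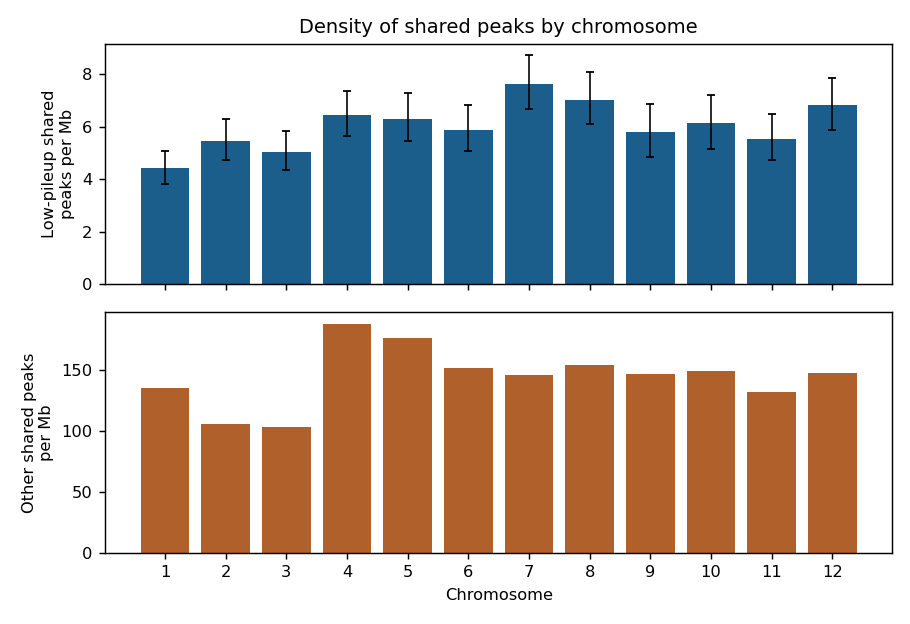
Shared peaks per Mb on each of the 12 chromosomes, low-pileup peaks above and all other shared peaks below, each on its own scale from 0; error bars are 95% exact Poisson intervals of the count. Low-pileup density runs from 4.41 (chromosome 1) to 7.64 (chromosome 7) per Mb, and that of the others from 103 (chromosome 3) to 188 (chromosome 4). The error bars treat peaks as independent and are too narrow where peaks cluster.

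Windows rich in other shared peaks held few more low-pileup peaks. The 740 windows of 500 kb were divided into 4 classes of 185 by the number of other shared peaks. From the sparsest to the densest class the others went from 48.1 to 269 per Mb, while low-pileup peaks went from 5.24 to 5.81, 6.52 and 6.32 per Mb. Low-pileup peaks therefore made up 9.83% of the shared peaks in the sparsest class and 2.29% in the densest. Across windows rho between both numbers was 0.10, with a median of 3 low-pileup peaks per window, at which counting error weakens any relation. There were 86 windows with none and 13 with 10 or more.

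Shared low-pileup peaks stood farther from other shared peaks. The median distance to the nearest other shared peak was 1354 bp, against 222 bp for the other shared peaks. No neighbour within 10 kb was found at 390 of the 2236 (17.4%, 15.9 to 19.1%), against 2.88% of all shared peaks. Another shared peak lay within 1 kb at 45.0% (42.9 to 47.1%), against 82.2%. Isolation was found at 23.7% of the 778 peaks whose background was below 2 times the average in both lists (20.8 to 26.8%) and at 13.5% of the 1057 at or above it (11.6 to 15.7%). Of the 58 with at least 3-fold enrichment in both lists, 7 (12.1%) were isolated in this sense. Of the 10 highest, 1 had its nearest shared peak over 5 kb away and 8 had it within 1 kb.

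**Figure D5:**
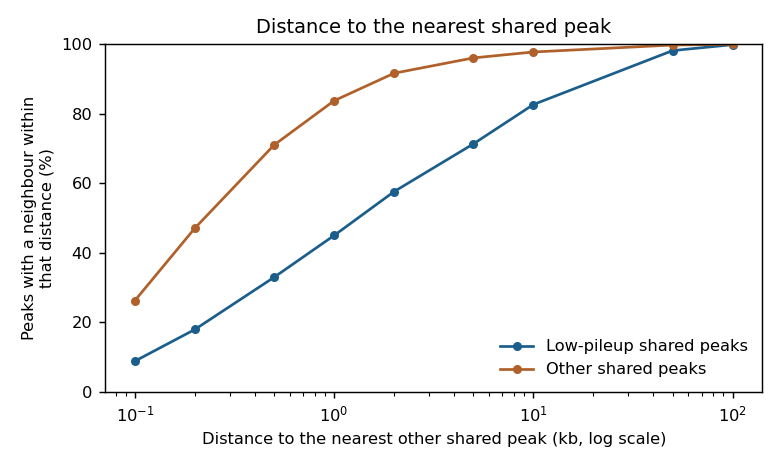
Percent of peaks (vertical axis) whose nearest other shared peak lies within a given distance in kb (horizontal axis, log scale), for low-pileup shared peaks (blue) and other shared peaks (orange). At 1 kb the curves stand at 45.0% and 83.7%, and at 10 kb at 82.6% and 97.7%.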

How the data were processed

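Peak lists of both pull-downs were analysed as deposited. Per the file headers the authors called peaks with MACS 2.2.5 in each replicate separately, with its same-numbered input as control, at a q-value limit of 0.05 and a genome size of 400 Mb, with at most 5 tags kept per position and strand and the larger library scaled down. Each listed pileup (signal at the summit), fold enrichment (ratio over background) and −log10 p and −log10 q is the authors' value, per the file headers. Not given in the sources used here are the aligner, the genome build and the treatment of reads that match several places. Such placing can set tag numbers at repeated sequence.

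From these values the tag number was computed as pileup divided by the scale, and the background as (pileup + 1)/fold − 1. Regions were named by rank in fold, pileup, width, inequality of folds and distance to the pileup limit, as the largest groups within 10 kb, and as the highest fold of each chromosome. The peaks, lists and named regions were chosen with earlier results of these data known. Python 3.11.15, pandas 2.3.3 and SciPy 1.17.1 were used, and the pairing was tested on simulated peaks. All intervals are at 95%.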

Additional observations from a re-analysis of the deposited data

How the results depend on the processing

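Of 89 values recomputed under 9 alternative settings and 2 further tolerances, 61 stayed close to the main value and 28 did not. Close means inside its 95% interval for shares, medians, the rank correlation and the density ratio, and within 1.5 times for counts, as 9 of the 61 were. A pileup limit of 80 left 1138 shared peaks and one of 120 left 3659. The share of low-pileup peaks with a partner became 44.7% and 45.7% in replicates 1 and 2 with any overlap of 1 bp, and 38.0% and 38.8% with 50% of the longer peak. It was 36.5% and 38.4% below a pileup of 80, 47.7% and 48.9% below 120, 39.6% and 40.1% at a −log10 q of at least 3, and 36.6% and 37.7% with summits at most 50 bp apart. The median fold was 2.18 and 2.24 at that q, and 2.07 in replicate 2 below 120. The Spearman rank correlation of fold between the lists was 0.38 below 80 and 0.51 below 120. The share with under 2 times the average background was 58.0% below 80, 22.2% below 120, 37.0% with unscaled tags below 100 and 37.8% at that q, so the limit decided whether it was a minority or a majority. The share of identical peaks was 2.91% with 50% of the longer peak. The share with no shared peak within 10 kb was 19.2% there, 23.2% below 80, 14.4% below 120 and 19.2% at that q. The density ratio between chromosomes stayed between 1.60 and 1.75. Members of recurring couples numbered 144 with exactly equal distances and 203 within 50 bp. The limits on summits, these tolerances and the counting of identical peaks once were chosen after seeing the data, and the last gives no value for the shares with a partner or with identical values. Neither replicate could be left out, since sharing needs both lists. No paired analysis was possible because each list holds peaks that were called with the same-numbered input as control, with no test between groups. At 33 to 104 tags a summit, counting error limits the order of single peaks.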

Other observations

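Low-pileup peaks without a partner were of similar fold to those with one. In replicate 1 the 3345 without had a median fold of 2.0 and the 2537 with a partner one of 2.02, and in replicate 2 the 3430 without had 2.10 and the 2684 with had 2.08. The median −log10 q was 5.02 without and 5.98 with a partner in replicate 1, and 5.73 and 6.26 in replicate 2. Median widths were 72 and 94 bp in replicate 1, and 69 and 93 bp in replicate 2. The background was 2.01 and 2.19 times the average in replicate 1, and 1.94 and 2.25 times in replicate 2.

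On chromosome 8, a pair of neighbouring low-pileup peaks occurred at 26686512 and 26687059 and again at 26706415 and 26706962, with 47 tags in each list at the first of both and 40 at the other. Folds at these 4 peaks were 2.24 to 2.43, and the peaks with 40 tags lay at the genome-wide average of the input.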
